A study of Mus musculus with 86 samples.

Results

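Resveratrol (RSV), a plant polyphenol, was compared with dexamethasone (DEX) alone in the gastrocnemius (GA), a mixed calf muscle rich in fast fibres, of male C57BL/6N mice that were 10 weeks old when supplied. The comparison rests on 9 of the 86 bulk RNA-seq libraries, chosen by their labels, namely 5 of GA from mice given RSV and 4 of GA from mice given DEX. Both groups were injected each day for 10 days with 25 mg/kg DEX, a synthetic glucocorticoid that wastes muscle, into the abdominal cavity. RSV mice then received, 30 min after each injection, 200 mg/kg RSV by gavage in 0.5% carboxymethylcellulose in buffer, as the positive control of the study, whereas DEX mice were gavaged with buffer alone. RSV therefore cannot be told apart from its cellulose vehicle in this comparison. Other GA libraries were set beside these. They were 6 groups given DEX with a peony and liquorice extract in the same cellulose vehicle (JGT02, JGT03 or JGT04 at 100 or 400 mg/kg), and 5 non-treated (NT) mice injected and gavaged with buffer. The same treatments were sequenced in the soleus (SO), a slow muscle. The muscles were taken 1 day after the last injection. About 5 mice shared a cage, and nothing in the labels ties mice to cages. The labels speak of 5 groups in the protocol, while the libraries form 9 per muscle, and they name a single batch.

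Resveratrol is studied as an activator, direct or indirect, of the NAD-dependent deacetylase SIRT1 and of AMP-activated protein kinase, and it binds the aryl hydrocarbon receptor. Glucocorticoids act through a receptor that enters the nucleus and regulates genes directly. In muscle they raise ubiquitin ligases of protein breakdown through FoxO factors and KLF15, and they oppose insulin and insulin-like growth factor signalling. Many targets of the receptor are also genes of the body clock. In a bulk muscle library, fewer cells of a type and less RNA per cell cannot be told apart.

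Total counts were 25.5 to 29.8 M (mega counts) in RSV libraries and 27.7 to 30.9 M in DEX libraries (exact two-sided permutation test, p = 0.317). Mitochondrially encoded genes took 11.7% to 13.4% of counts in RSV and 13.5% to 14.1% in DEX (p = 0.0159, the smallest that 5 against 4 libraries can give in this exact permutation test). The 10 highest genes took 26.1% to 27.5% in RSV and 27.5% to 28.4% in DEX (p = 0.0317, same exact permutation test). The tissue label was borne by its markers: 19 fast-fibre genes summed to 171000 to 178000 CPM (counts per mega count) in RSV and 167000 to 185000 CPM in DEX, and 19 slow-fibre genes to 3270 to 3820 CPM in RSV and 2700 to 4040 CPM in DEX. DEX mouse 4 had the lowest correlation with its own group among these libraries (0.9876 on log2 CPM), and values without it are given where a call is lost. The listed order of the libraries carries a level break seen in earlier results of these data, between mice 3 and 4 of the JGT04 group at 100 mg/kg. DEX and NT libraries lie before the break and RSV and JGT04 400 mg/kg libraries after it. The break is not in the labels and runs with the comparison, so fits with a term for it (the set term) are given beside the results. In the GA fit only JGT04 at 100 mg/kg has libraries on both sides, so the term rests on its mice 1 to 3 against 4 and 5. The term itself passed for 0 of 14428 genes, with 986 at an unadjusted p under 0.05 by edgeR. CPM below are scaled for composition and are not divided by gene length. Errors of means are SD and errors of log2 fold changes are standard errors (SE). P values are from the edgeR quasi-likelihood test on the 42 GA libraries kept, with Benjamini-Hochberg adjustment over 14428 tested genes, and a call is an adjusted p under 0.05. They measure the spread between libraries of separate mice. Whether the counting used strand is not given in the sources used here, so values are uncertain for genes with exons over those of a gene on the other strand. Among the genes named and checked, here and in the closing observations, these are Nmrk2 and Atcay (both with Atcayos), Cebpb (with Tmem189), Nr1d1 (with Thra), Echs1 (with Paox), Eng, Plekhh3, Pdia3, Tnnc2, Hspd1, Col4a1 and Col4a2 with named partners, and Acsl1, Banp, Casq1, Ckmt2, Col15a1, Efr3b, Fbn1, Fbxo32, Foxo1, H19, Hsp90b1, Jun, Mt2, Myh1, Myh7, Prg4, Ryr1, Sirt1, Tef, Thbs1, Tiparp and Zc3h6. Some called list members, among them Eln, Hspa5, Cdh5 and Per2, were not checked for such overlap.

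RSV changed 1367 of 14428 genes relative to DEX, 9.47% of those tested, of which 661 (4.58%) were higher and 706 (4.89%) lower in RSV. The changes were small. The median size among called genes was 0.287 on the log2 scale, 1179 calls were under 1.5-fold and 55 were over 2-fold. RSV and DEX libraries did not overlap for 1351 genes, 9.36% of those tested, and 929 of these were also called. Without adjustment, 3353 genes had a p under 0.05. With the set term 46 genes passed, 24 higher and 22 lower, and 42 of them were among the 1367. Of the 1367, 1343 (98.2%) kept their sign with the term, while the median SE of these genes was 0.121 with it and 0.0718 without it. When the GA library that stands apart, mouse 1 of JGT02 at 100 mg/kg, was put back into the fit, 199 genes passed. A fit of the RSV and DEX libraries alone gave 735, and one without DEX mouse 4 gave 924.

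The largest falls in RSV included Nmrk2, Ppp1r3c and Cyp26b1. Nmrk2, the muscle nicotinamide riboside kinase that feeds a salvage route to NAD (chr10:81198170-81202051, minus strand, GRCm38), had 29.3, 9.71, 21.9, 25.8 and 14.8 CPM in the RSV mice, against 145, 48.6, 48.7 and 105 CPM in the DEX mice. All RSV mice lay below all DEX mice, and the spread within DEX was wide. Its log2 fold change was -2.11 ± 0.32 (adjusted p = 1.72e-05), and -1.95 with the set term, where it did not pass (adjusted p = 0.111). Ppp1r3c, which targets protein phosphatase 1 to glycogen and promotes its synthesis (chr19:36731731-36736653, minus strand), had 83.2, 93.8, 49.3, 91.4 and 72.1 CPM in RSV, against 168, 268, 148 and 270 CPM in DEX. The groups were again apart, with a log2 fold change of -1.45 ± 0.18 (adjusted p = 4.24e-07) that passed with the set term as well (-1.37, adjusted p = 0.0282). Cyp26b1, which breaks down retinoic acid (chr6:84571414-84593908, minus strand), had 4.94, 5.45, 2.73, 3.69 and 2.98 CPM in RSV, against 9.14, 7.91, 12.1 and 9.24 CPM in DEX. Its log2 fold change of -1.27 ± 0.27 (adjusted p = 0.0016) was -0.49 with the set term (adjusted p = 0.743).

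Slc38a4, a neutral amino acid transporter (chr15:96994820-97055956, minus strand), had 79.7, 76.7, 68.5, 81.5 and 80.6 CPM in RSV, against 125, 156, 119 and 186 CPM in DEX. RSV mice were tightly grouped and all below DEX, at a log2 fold change of -0.92 ± 0.10 (adjusted p = 1.2e-07; -0.79, adjusted p = 0.0321, with the set term). Gpr56, an adhesion receptor for matrix ligands (chr8:94974751-95014217, plus strand), averaged 7.72 ± 0.851 CPM in RSV and 14.1 ± 1.19 CPM in DEX, a log2 fold change of -0.87 ± 0.10 (adjusted p = 2.6e-07) that also passed with the set term (adjusted p = 0.0465). The 12 largest falls also held Nr1d1 and Fbn1, described below, Il1r1, Banp, Efr3b and Aqp7. Aqp7, a channel for glycerol, averaged 5.38 ± 0.337 CPM in RSV and 9.33 ± 0.815 CPM in DEX. Il1r1, the signalling receptor of interleukin 1, had 6.12 to 9.59 CPM in RSV and 10.4 to 19.1 CPM in DEX. Its call (log2 -0.93 ± 0.21, adjusted p = 0.00405) was lost without DEX mouse 4 (-0.70, adjusted p = 0.0503).

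The largest rises in RSV were those of Cebpb, Gadd45b and Arrdc3. Cebpb, a transcription factor induced by glucocorticoids and inflammatory signals (chr2:167688915-167690418, plus strand), had 28.6, 27.9, 22.8, 29.9 and 20.4 CPM in RSV, against 12.0, 13.1, 12.1 and 10.0 CPM in DEX. The groups did not overlap, and the log2 fold change was 1.14 ± 0.16 (adjusted p = 9.17e-06). With the set term it was 0.57 ± 0.25 (adjusted p = 0.391). Gadd45b, a stress-induced regulator of growth arrest (chr10:80930073-80932204, plus strand), had 50, 48.3, 46.1, 40.2 and 42.6 CPM in RSV, against 24.1, 21.5, 26.2 and 16.4 CPM in DEX. The lowest RSV mouse was above the highest DEX mouse, at a log2 fold change of 1.05 ± 0.13 (adjusted p = 5.25e-07; 0.89, adjusted p = 0.0563, with the set term). Arrdc3, an arrestin-like adaptor of receptor trafficking (chr13:80883384-80896042, plus strand), had 60.4, 58.4, 44.1, 47.7 and 45.0 CPM in RSV, against 34.7, 22.6, 25.1 and 17.7 CPM in DEX, a log2 fold change of 1.03 ± 0.15 (adjusted p = 6.85e-06).

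Members of the activin and TGF-beta pathway stood among the 12 largest rises. Acvr1b, a type I receptor that passes on activin and myostatin signals (chr15:101174067-101213684, plus strand), had 172, 162, 156, 144 and 154 CPM in RSV, against 103, 87.7, 106 and 79.8 CPM in DEX. RSV mice were all higher, by 0.75 ± 0.07 on the log2 scale (adjusted p = 1.78e-08; 0.64, adjusted p = 0.00723, with the set term). Skil, a nuclear repressor of Smad transcription (chr3:31095058-31122577, plus strand), had 17.1, 16.7, 14.6, 17.5 and 15 CPM in RSV, against 10.9, 8.15, 8.77 and 10.1 CPM in DEX. Its log2 fold change was 0.77 ± 0.10 (adjusted p = 2.64e-06), and 1.01 with the set term (adjusted p = 0.00403). Tbc1d1, an AMPK and Akt substrate that controls glucose transporter traffic in muscle (chr5:64156305-64351486, plus strand), had 80, 71.3, 54.9, 74.6 and 52.2 CPM in RSV, against 40.1, 31.9, 37.4 and 38.8 CPM in DEX, a log2 fold change of 0.85 ± 0.14 (adjusted p = 4.64e-05). The others of the 12 were Zfp503, Atcay, Zc3h6, Tmem9, Plekhh3 and Klhl33, with log2 fold changes of 0.74 to 0.95. Zc3h6, a zinc finger gene, averaged 19.2 ± 1.42 CPM in RSV and 10.9 ± 1.93 CPM in DEX and passed with the set term (adjusted p = 0.0251), as did Tmem9 (adjusted p = 0.0452). Atcay lies beside Nmrk2, with its span at chr10:81204508-81230833, and rose by 0.93 ± 0.16 (adjusted p = 0.000164) where Nmrk2 fell. All of these 23 genes apart from Il1r1 kept their call when any 1 of the 9 libraries was left out.

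**Figure D1:**
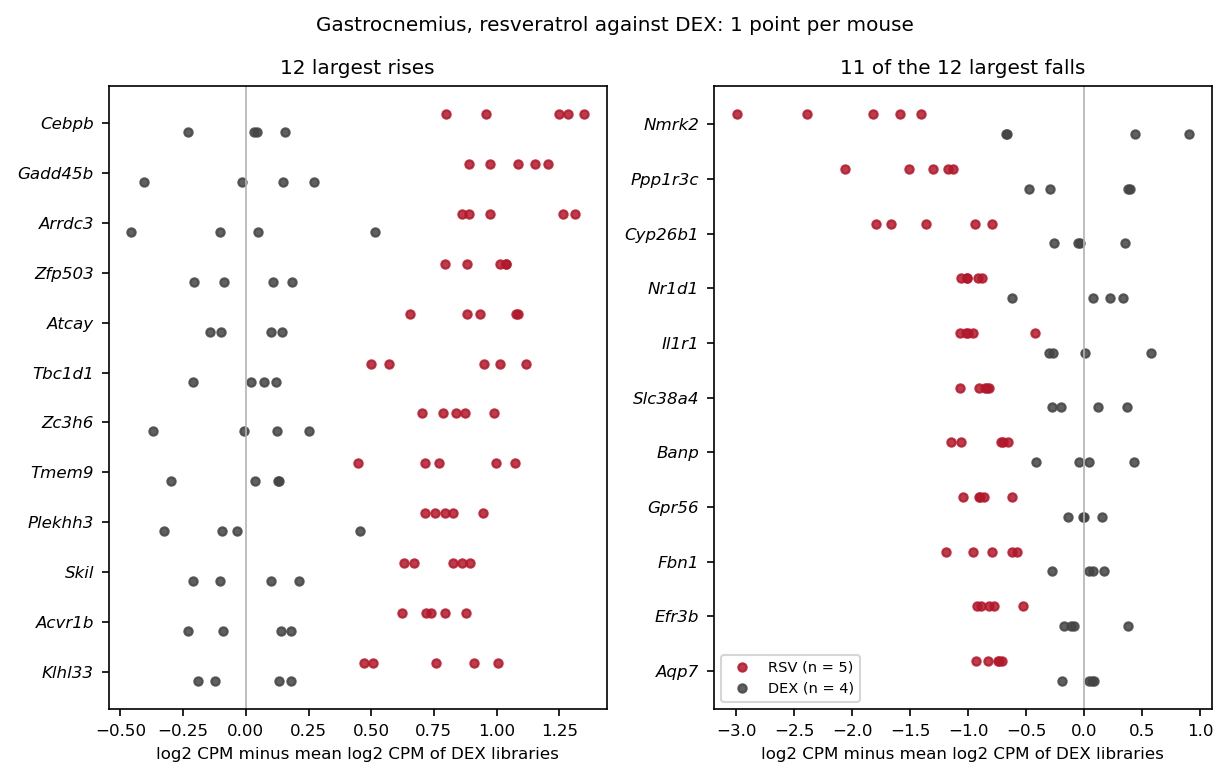
CPM of the 12 largest rises (left) and 11 of the 12 largest falls (right) in each RSV mouse (red, n = 5) and each DEX mouse (grey, n = 4), on the log2 scale relative to the mean of the DEX mice. The points of the groups do not overlap for any of these 23 genes, as the rule for naming them required, and the widest spread is that of Nmrk2, with DEX mice at 48.6 to 145 CPM.

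Of 37 collagen and matrix genes measured, 10 fell in RSV, 1 rose and 26 did not pass (29.7% called, beside 9.47% of all genes), and their median log2 fold change was -0.225, beside 0.00471 over all genes. The falls included both chains of the main basement membrane collagen, Col4a1 and Col4a2, whose genes lie head to head on chromosome 8 and start from a shared promoter. Col4a1 (chr8:11198423-11312826, minus strand) had 52.8, 56.4, 60.4, 51.5 and 52.5 CPM in RSV, against 74.4, 87.7, 78.7 and 89.1 CPM in DEX. Col4a2 (chr8:11312805-11449287, plus strand) had 41.5, 43.9, 49.3, 38.8 and 38.9 CPM in RSV, against 60.9, 66.6, 68.7 and 66.5 CPM in DEX. For both, every RSV mouse was below every DEX mouse, and the log2 fold changes were near each other, -0.59 ± 0.07 for Col4a1 (adjusted p = 4.24e-07) and -0.63 ± 0.07 for Col4a2 (adjusted p = 3.11e-07). Both passed with the set term, at -0.60 (adjusted p = 0.0132) and -0.71 (adjusted p = 0.00628), and they were the 2 falls of the list that did. The promoter windows of the pair are shown because the members moved together. Each runs from 250 bases before to 50 bases after the annotated start (RefSeq, GRCm38.p6), Col4a1 at chr8:11312777-11313076 on the minus strand and Col4a2 at chr8:11312555-11312854 on the plus strand. They overlap by the 78 bases in capitals, chr8:11312777-11312854, which are reverse complements of each other as printed.
Col4a1: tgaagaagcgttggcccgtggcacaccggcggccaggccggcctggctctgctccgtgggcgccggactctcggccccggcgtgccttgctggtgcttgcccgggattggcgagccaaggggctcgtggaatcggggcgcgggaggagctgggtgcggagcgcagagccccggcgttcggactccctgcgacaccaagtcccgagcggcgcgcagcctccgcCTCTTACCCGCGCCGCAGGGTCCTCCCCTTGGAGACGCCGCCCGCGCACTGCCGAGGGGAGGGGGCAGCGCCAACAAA
Col4a2: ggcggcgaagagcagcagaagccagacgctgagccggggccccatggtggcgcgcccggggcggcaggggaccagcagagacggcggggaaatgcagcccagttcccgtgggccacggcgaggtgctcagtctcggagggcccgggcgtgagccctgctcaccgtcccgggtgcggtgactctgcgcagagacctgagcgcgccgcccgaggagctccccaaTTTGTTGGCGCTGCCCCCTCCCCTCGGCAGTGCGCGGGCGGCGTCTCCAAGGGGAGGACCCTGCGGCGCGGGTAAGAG

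Other matrix falls were Fbn1, which encodes the microfibril protein fibrillin 1 (9.37 ± 1.59 CPM in RSV and 16.6 ± 2.12 CPM in DEX, log2 -0.82 ± 0.11, adjusted p = 3.4e-06), and Eln, elastin (9.37 ± 1.18 CPM in RSV and 14.9 ± 2.38 CPM in DEX, log2 -0.67 ± 0.11, adjusted p = 0.000103). Col15a1, a basement membrane collagen, fell by 0.55 ± 0.11 on the log2 scale (adjusted p = 0.000934), and Col5a1, Col6a1, Lamb1, Lamc1 and Hspg2 also fell. Col8a1 was the rise (0.52 ± 0.16, adjusted p = 0.0312), and its call was lost without any of RSV mice 1, 2 and 4 and DEX mice 3 and 4 (0.42, adjusted p = 0.12, without DEX mouse 3). Col6a1 (-0.27, adjusted p = 0.0971) and Lamb1 (-0.29, adjusted p = 0.0976) lost theirs without RSV mouse 1, among other mice, and Lamc1 (-0.21, adjusted p = 0.0543) without DEX mouse 4. The count of falls was 7 to 13 when single libraries were left out, and 0 when the JGT02 library that stands apart was put back.

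Of 15 endothelial markers 6 fell and none rose (40.0% called, beside 9.47% of all genes), with a median of -0.205. Eng, a co-receptor of TGF-beta on vessel walls, had 29.0, 41.7, 41.3, 33.0 and 34.8 CPM in RSV, against 50.3, 50.3, 50.1 and 58.9 CPM in DEX, so that no RSV mouse reached the lowest DEX mouse (log2 -0.54 ± 0.09, adjusted p = 7.03e-05). Tek, the angiopoietin receptor (15 ± 1.25 CPM in RSV and 21.5 ± 1.84 CPM in DEX, adjusted p = 0.000325), Emcn, Pecam1, Cdh5 and Kdr were the other falls. The call of Cdh5 was lost without any of RSV mice 1 and 5 and DEX mice 2 and 3 (-0.29, adjusted p = 0.0823, without DEX mouse 3), and that of Kdr without any of RSV mice 1 and 4 and DEX mice 3 and 4 (-0.36, adjusted p = 0.1, without DEX mouse 4). The summed level of the 15 markers was 449 to 565 CPM in RSV, 554 to 591 CPM in DEX and 605 to 629 CPM in NT. Their part in the fall of the matrix genes was not tested. None of the endothelial falls passed with the set term. Markers of pericytes (12 measured) and tenocytes (14) gave no call. Of 14 markers of fibroblasts and their progenitors 2 fell, Col15a1 and Cd248, the second with a call lost without RSV mouse 1 (-0.32, adjusted p = 0.053).

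**Figure D2:**
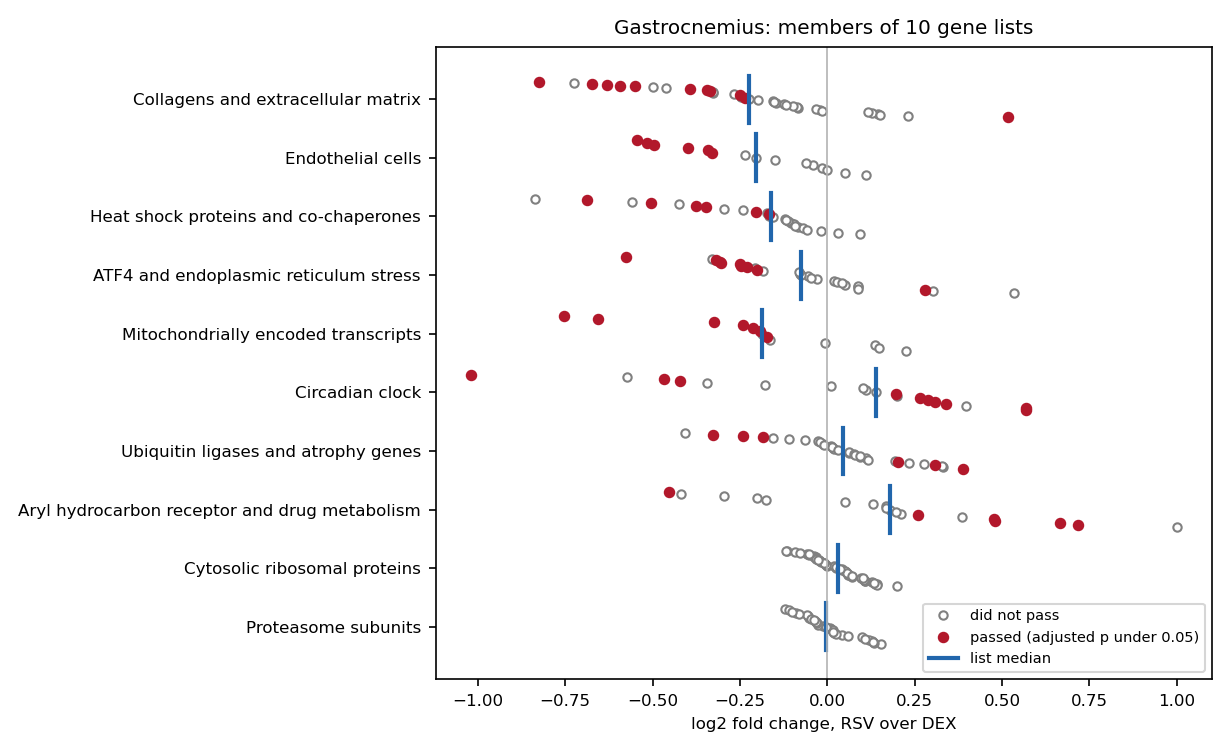
Log2 fold change, RSV over DEX, of every measured member of 10 gene lists, with members that passed filled in red, others open and the median of a list as a blue bar. Matrix (median -0.225), endothelial (-0.205), mitochondrially encoded (-0.187) and heat shock (-0.161) members lie mostly below 0, and proteasome and cytosolic ribosomal members lie around 0 with none passing.

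Among 26 heat shock proteins and co-chaperones 6 fell in RSV, none rose and 20 did not pass (23.1% called, beside 9.47% of all genes). Of the 26, 24 had a negative log2 fold change, and the median was -0.161. Hspa8, the constitutive cytosolic HSP70, had 648, 686, 684, 706 and 737 CPM in RSV, against 810, 825, 903 and 1050 CPM in DEX (log2 -0.38 ± 0.07, adjusted p = 0.000782). The groups did not overlap, although 43.5% of the 31-base words of Hspa8 occur in other genes, so its counts may be split with copies. The same holds for Hsp90aa1, the inducible cytosolic HSP90 (log2 -0.69 ± 0.15, adjusted p = 0.00167, 51.4% shared). Hspd1 (50.1% shared), Stip1, Dnaja1 and Hspb8 were the remaining falls. Without DEX mouse 4 the list counted 2 falls, and with the set term 0, and the calls of Hspd1 (-0.13, adjusted p = 0.0509) and Stip1 (-0.17, adjusted p = 0.0509) were lost without that mouse, as were those of Dnaja1 (-0.38, adjusted p = 0.107) and Hspb8 (-0.24, adjusted p = 0.183), which were also lost without some other single mice.

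Of 27 genes of ATF4 and endoplasmic reticulum stress 8 fell, among them chaperones and disulfide isomerases, and 1 rose (33.3% called, beside 9.47% of all genes, median -0.074). Hspa5, the lumenal HSP70 known as BiP, had 131, 115, 114, 125 and 122 CPM in RSV, against 140, 139, 145 and 152 CPM in DEX, and averaged 125 ± 5.76 CPM in NT. All RSV mice were below all DEX mice, by a small step (log2 -0.25 ± 0.06, adjusted p = 0.00634). Hsp90b1, the lumenal HSP90 (80.9 to 92 CPM in RSV and 97 to 107 CPM in DEX, adjusted p = 0.00427), Pdia3 (34.9 ± 2.13 CPM in RSV and 43.5 ± 3.38 CPM in DEX, adjusted p = 0.000706) and the stress factor Atf4 (137 ± 11.9 CPM in RSV and 163 ± 10.2 CPM in DEX, adjusted p = 0.00611) also fell, with Pdia4, Pdia6, Mthfd2 and Manf. The rise was Herpud1, a part of the machinery that degrades misfolded proteins of the reticulum (135 ± 1.42 CPM in RSV and 111 ± 10.6 CPM in DEX, log2 0.28 ± 0.06, adjusted p = 0.00103). Without DEX mouse 4 the falls numbered 4, the calls of Pdia6 (-0.17, adjusted p = 0.0602), Pdia4 (-0.28, adjusted p = 0.0929), Mthfd2 (-0.52, adjusted p = 0.0652) and Manf (-0.22, adjusted p = 0.162) being lost, and none passed with the set term.

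The promoter windows of 3 of these falls are shown because they hold the endoplasmic reticulum stress element, CCAAT followed after 9 further bases by CCACG, searched on both strands. It is an element through which the unfolded protein response acts on such genes. It occurs in 0.119% of the 32851 promoter windows of RefSeq on GRCm38.p6. Counted by gene, it occurs in windows of 0.137% of all genes and of 6 of the 27 list members with a window. These are Hspa5, Hsp90b1, Pdia6, Calr, Canx and Creld2, of which the first 3 fell. The windows are at chr2:34771840-34772139 (plus strand, Hspa5), chr10:86705395-86705694 (minus strand, Hsp90b1, with 2 matches) and chr12:17266339-17266638 (plus strand, Pdia6), and the matches are in capitals.
Hspa5: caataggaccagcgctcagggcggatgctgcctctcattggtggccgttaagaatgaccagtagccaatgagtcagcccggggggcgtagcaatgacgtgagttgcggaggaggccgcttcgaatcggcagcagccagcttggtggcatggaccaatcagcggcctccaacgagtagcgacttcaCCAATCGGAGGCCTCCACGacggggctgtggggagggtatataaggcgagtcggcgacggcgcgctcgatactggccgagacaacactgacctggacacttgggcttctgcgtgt
Hsp90b1: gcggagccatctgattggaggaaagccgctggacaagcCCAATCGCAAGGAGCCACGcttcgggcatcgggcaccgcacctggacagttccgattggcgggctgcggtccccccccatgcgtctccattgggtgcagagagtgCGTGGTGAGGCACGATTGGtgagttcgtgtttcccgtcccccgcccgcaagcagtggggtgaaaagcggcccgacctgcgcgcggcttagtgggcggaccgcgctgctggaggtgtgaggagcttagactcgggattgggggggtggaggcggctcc
Pdia6: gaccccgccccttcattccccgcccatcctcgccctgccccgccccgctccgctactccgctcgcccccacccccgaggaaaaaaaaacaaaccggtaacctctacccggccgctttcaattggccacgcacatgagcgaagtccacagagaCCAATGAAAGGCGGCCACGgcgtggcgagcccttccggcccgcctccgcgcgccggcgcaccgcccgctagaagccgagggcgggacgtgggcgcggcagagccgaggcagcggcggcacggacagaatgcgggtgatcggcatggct
The heat shock element searched, GAA, TTC and GAA spaced by 2 bases each on either strand, occurs in 0.603% of windows. Counted by gene, it occurs in windows of 0.662% of all genes and of 4 of 20 heat shock list members (Hsph1, Hspd1, Hspe1 and Chordc1). A match describes the letters of a window and does not show a bound site.

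Genes of the body clock changed in both directions. Of 19 measured, 7 rose and 3 fell in RSV (52.6% called, beside 9.47% of all genes), with a median log2 fold change of 0.139. Nr1d1, the REV-ERB alpha repressor of the clock (chr11:98767932-98775333, minus strand), had 144, 144, 157, 139 and 154 CPM in RSV, against 337, 365, 306 and 188 CPM in DEX. RSV mice were close together and below every DEX mouse, of which mouse 4 was lowest. The log2 fold change of -1.02 ± 0.11 (adjusted p = 6.25e-08) also passed with the set term (-1.12 ± 0.19, adjusted p = 0.00403). Clock, the activator partner of BMAL1, had 19.5, 19, 18.4, 21.0 and 22.7 CPM in RSV, against 26.4, 30.4, 24.8 and 26.1 CPM in DEX (log2 -0.42 ± 0.06, adjusted p = 2.58e-05). On the other side, the repressors Per3 (52.6 ± 5.0 CPM in RSV and 35.5 ± 6.05 CPM in DEX, log2 0.57 ± 0.13, adjusted p = 0.00319) and Cry1 (19.8 ± 1.96 CPM in RSV and 15.7 ± 0.562 CPM in DEX, log2 0.34 ± 0.09, adjusted p = 0.00927) rose. Tef, an output factor of the clock, had 337, 352, 328, 329 and 347 CPM in RSV, against 287, 254, 282 and 287 CPM in DEX, without overlap (log2 0.29 ± 0.06, adjusted p = 0.00319). Nr1d2, Cry2 and Per2 were also among the rises, and Nfil3 fell. Per2 (0.49, adjusted p = 0.0917) lost its call without DEX mouse 2, and also without DEX mouse 1. Without DEX mouse 4 the calls of Nfil3 (-0.40, adjusted p = 0.0864) and Cry2 (0.22, adjusted p = 0.0955) were lost, that of Nfil3 also without RSV mouse 1. With the set term none of the 7 rises passed and 1 fall did, and none of the rises passed when the JGT02 library was put back. The time of day of dissection was not in the labels, and its part in these values was not tested.

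CLOCK and BMAL1 act through the E-box CACGTG, a palindrome that reads the same on both strands. It occurs in 7.15% of all promoter windows. Counted by gene, it occurs in 8.09% of all genes and in 5 of the 17 clock members with a window (Per1, Cry1, Tef, Ciart and Bhlhe41), of which Cry1 and Tef rose. Their windows, chr10:85185005-85185304 on the minus strand for Cry1 and chr15:81802423-81802722 on the plus strand for Tef, are shown with the E-box in capitals.
Cry1: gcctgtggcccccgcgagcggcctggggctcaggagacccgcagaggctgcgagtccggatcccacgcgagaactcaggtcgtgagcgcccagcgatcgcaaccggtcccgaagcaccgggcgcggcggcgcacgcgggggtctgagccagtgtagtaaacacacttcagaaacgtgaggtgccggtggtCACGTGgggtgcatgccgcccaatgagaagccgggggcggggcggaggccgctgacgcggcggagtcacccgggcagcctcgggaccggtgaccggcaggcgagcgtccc
Tef: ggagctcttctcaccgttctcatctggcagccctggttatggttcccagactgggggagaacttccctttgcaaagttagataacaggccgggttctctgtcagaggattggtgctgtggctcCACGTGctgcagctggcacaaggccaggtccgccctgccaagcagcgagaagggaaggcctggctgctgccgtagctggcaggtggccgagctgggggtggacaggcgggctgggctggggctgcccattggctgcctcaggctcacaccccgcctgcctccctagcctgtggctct

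Of 35 glucocorticoid targets measured, 20.0% were called, beside 9.47% of all genes. Of these 4 rose (Cebpb, Klf9, Foxo1 and Ddit4) and 3 fell (Fkbp5, Zbtb16 and Mt2), with a median of 0.0307 over the list, and none passed with the set term. Fkbp5, a co-chaperone of the glucocorticoid receptor (chr17:28399094-28517527, minus strand), had 35.7, 39.0, 44.8, 40.8 and 63.7 CPM in RSV, against 82.6, 75.2, 69.4 and 75.5 CPM in DEX. RSV mouse 5 came nearest to the DEX mice, without overlap (log2 -0.76 ± 0.14, adjusted p = 0.000285; -0.43, adjusted p = 0.517, with the set term). Zbtb16, a zinc finger factor, averaged 18.8 ± 3.74 CPM in RSV and 31.2 ± 7.54 CPM in DEX (log2 -0.74 ± 0.14, adjusted p = 0.00046). Klf9 averaged 151 ± 8.08 CPM in RSV and 129 ± 9.41 CPM in DEX (log2 0.23 ± 0.05, adjusted p = 0.00546). The metallothionein Mt2 had a log2 fold change of -1.06 ± 0.31 (adjusted p = 0.0224) that was lost without RSV mouse 2 or 3 or DEX mouse 2 (-0.74, adjusted p = 0.168), and the call of Ddit4, an inhibitor of mTOR signalling, was lost without RSV mouse 2 or DEX mouse 2 or 4 (0.50, adjusted p = 0.0783, without DEX mouse 4). Tsc22d3, the anti-inflammatory target also known as GILZ, averaged 135 ± 19.4 CPM in RSV and 120 ± 31.7 CPM in DEX (adjusted p = 0.437).

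Neither of the best-known ubiquitin ligases of atrophy passed. Fbxo32, the ubiquitin ligase atrogin-1, had 305, 312, 248, 326 and 287 CPM in RSV, against 245, 295, 266 and 135 CPM in DEX, with overlap and a low DEX mouse 4 (log2 0.33 ± 0.19, adjusted p = 0.313). Trim63, the ligase MuRF1, had 163, 150, 120, 139 and 133 CPM in RSV, against 127, 101, 116 and 105 CPM in DEX, with overlap at RSV mouse 3 (log2 0.33 ± 0.12, adjusted p = 0.0737). Fbxo32 was lower than in NT both in RSV (log2 -0.78, adjusted p = 0.000775) and in DEX (log2 -1.11, adjusted p = 3.56e-05). Of the 32 ubiquitin ligase and atrophy genes 3 rose (Cblb, Fbxo21 and Fbxo31) and 3 fell (Fbxo40 and Trim55 among them), which is 18.8% called, beside 9.47% of all genes, with a median of 0.0461. Cblb, a ligase of insulin receptor substrates, averaged 17 ± 2.52 CPM in RSV and 13.0 ± 0.923 CPM in DEX (log2 0.39 ± 0.08, adjusted p = 0.000667) and passed with the set term (0.56, adjusted p = 0.0282). Fbxo40, a muscle ligase of the same kind, averaged 276 ± 20.8 CPM in RSV and 346 ± 12.4 CPM in DEX (log2 -0.33 ± 0.05, adjusted p = 6.14e-05). The call of Fbxo31 was lost without DEX mouse 4 (0.17, adjusted p = 0.0863). All 31 proteasome subunits measured were below the threshold for a call.

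Among the 4 FoxO factors, which drive atrophy genes, 3 rose (75.0% called, beside 9.47% of all genes). None of them passed with the set term. Foxo1 had 22.3, 24.4, 23.1, 24.3 and 23.0 CPM in RSV, against 19.1, 21.3, 18.4 and 20.9 CPM in DEX, just without overlap (log2 0.23 ± 0.06, adjusted p = 0.00768). Foxo6 averaged 8.66 ± 1.49 CPM in RSV and 5.33 ± 1.01 CPM in DEX (adjusted p = 0.0019), and the call of Foxo4 (adjusted p = 0.0468) was lost without any of the 9 mice apart from RSV mouse 3 and DEX mouse 3 (0.14, adjusted p = 0.169, without DEX mouse 4). Foxo3 averaged 26.3 ± 2.1 CPM in RSV and 25.2 ± 1.72 CPM in DEX (adjusted p = 0.597). Klf15 (log2 0.10, adjusted p = 0.705), Pdk4 (0.27, adjusted p = 0.751) and Ppargc1a (0.04, adjusted p = 0.84) did not pass either. Mstn, which encodes the growth inhibitor myostatin, averaged 98.3 ± 13.9 CPM in RSV and 119 ± 1.06 CPM in DEX (log2 -0.28 ± 0.09, adjusted p = 0.0535). Igf1, a growth factor of muscle, had 13.7, 22.6, 18.6, 27.7 and 14.6 CPM in RSV, against 22.2, 23.2, 22.6 and 52.2 CPM in DEX, where mouse 4 stood far above the others (log2 -0.63 ± 0.22, adjusted p = 0.0669).

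The myostatin, activin and Smad list held 3 rises and 1 fall among 25 genes (16.0% called, beside 9.47% of all genes, median 0.0505). Beside Acvr1b, the inhibitory Smads rose: Smad7 averaged 14.8 ± 2.22 CPM in RSV and 9.44 ± 1.11 CPM in DEX (log2 0.65 ± 0.11, adjusted p = 8.95e-05), and Smad6 averaged 8.18 ± 0.714 CPM in RSV and 5.55 ± 0.968 CPM in DEX (log2 0.56 ± 0.11, adjusted p = 0.000934). Gdf11, a ligand close to myostatin, averaged 22.5 ± 2.26 CPM in RSV and 29.3 ± 2.91 CPM in DEX (log2 -0.38 ± 0.09, adjusted p = 0.0077). Of this list Acvr1b alone passed with the set term, and Smad7 alone when the JGT02 library was put back.

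Genes tied to the named targets of resveratrol gave 1 rise and 1 fall among 33 members of the sirtuin, AMPK, NAD and PGC-1 list, a share of 6.06% called, below the 9.47% of all genes. The rise was Prkaa2, the catalytic AMPK subunit that prevails in muscle, with 374, 334, 338, 351 and 359 CPM in RSV, against 319, 306, 304 and 302 CPM in DEX, without overlap (log2 0.19 ± 0.05, adjusted p = 0.00702). The fall was Nmrk2. Neither passed with the set term, and Prkaa2 also lost its call when the JGT02 library was put back. Sirt1 averaged 10.6 CPM in RSV and 9.43 CPM in DEX (log2 0.17 ± 0.08, adjusted p = 0.179). Of 19 measured genes of the aryl hydrocarbon receptor and drug metabolism, 5 rose and 1 fell (31.6% called, beside 9.47% of all genes, median 0.18), and with the set term 1 rise and no fall passed. Fmo2, a flavin monooxygenase (chr1:162874317-162898726, minus strand), had 25.5, 33.2, 32.5, 31.6 and 29.3 CPM in RSV, against 18.4, 19.8, 19.9 and 16.0 CPM in DEX. The groups were clearly apart, and the log2 fold change of 0.72 ± 0.09 (adjusted p = 4.24e-07) was the rise that passed with the set term (0.78, adjusted p = 0.00628). Aox1, an aldehyde oxidase (29.3 ± 0.805 CPM in RSV and 21.1 ± 0.834 CPM in DEX, adjusted p = 4.79e-06), and Gstt1, a glutathione transferase (5.92 ± 0.337 CPM in RSV and 3.73 ± 0.256 CPM in DEX, adjusted p = 1.46e-05), also rose, with Arnt and Ces1d. Tiparp, a direct target of the receptor, fell (19 ± 1.81 CPM in RSV and 26.1 ± 4.98 CPM in DEX, log2 -0.45 ± 0.10, adjusted p = 0.00394), with overlap between the groups. Cyp1a1, the classical target, was too low to be tested.

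Glycolysis and glycogen genes held 1 rise and 3 falls among 35 (11.4% called, near the 9.47% of all genes). Lipid and triglyceride synthesis held 2 rises and 2 falls among 22 genes (18.2% called, median -0.026). In glycogen metabolism Ppp1r3c fell, as above, while Ppp1r3a, the muscle glycogen-targeting subunit of the same phosphatase, rose (458 ± 21.7 CPM in RSV and 382 ± 34.7 CPM in DEX, log2 0.26 ± 0.06, adjusted p = 0.00159). Lpin1, which makes diacylglycerol and co-activates fat oxidation genes, had 244, 248, 236, 243 and 250 CPM in RSV, against 322, 333, 300.0 and 393 CPM in DEX (log2 -0.46 ± 0.06, adjusted p = 4.24e-07; -0.41, adjusted p = 0.0461, with the set term). All RSV mice lay within a narrow band below the DEX mice. Dgat2, which completes triglycerides, averaged 59.1 ± 10.1 CPM in RSV and 40.7 ± 2.08 CPM in DEX (log2 0.54 ± 0.14, adjusted p = 0.00828). Of the 13 mitochondrially encoded transcripts 7 fell (53.8% called, beside 9.47% of all genes, median -0.187). Of 75 nuclear genes of oxidative phosphorylation 1 changed, a rise (1.33% called, median -0.000773). As an example mt-Nd2, a complex I subunit, averaged 10700 ± 746 CPM in RSV and 12700 ± 559 CPM in DEX (log2 -0.24 ± 0.07, adjusted p = 0.0156), and 13.5% of its 31-base words occur in other genes. The fall of these transcripts runs with their lower share of counts in RSV, given above. Leaving out single libraries gave 3 to 8 such falls. With the set term there was none, and mt-Nd3, another complex I subunit, passed as a rise (0.65, adjusted p = 0.012), against 0.23 without the term (adjusted p = 0.111).

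Neither the myosin of the fastest fibres nor the slow myosin passed. Myh4, the first of these, averaged 45500 ± 1580 CPM in RSV and 44200 ± 4020 CPM in DEX (adjusted p = 0.754), and Myh7, the slow one, averaged 323 ± 36.2 CPM in RSV and 276 ± 103 CPM in DEX (adjusted p = 0.653). Myosin heavy chain genes share 22.9% to 37.9% of their 31-base words with other genes, and the light chain gene Myl1 shares 14.5%. Of 19 fast-fibre genes 1 rose (Ryr1) and 3 fell (Casq1, Myl1 and Tnnc2), which is 21.1% called, and of 19 slow-fibre genes 1 rose (Lmod2) and 1 fell (Ckmt2), which is 10.5% called, beside 9.47% of all genes. Without DEX mouse 4 the calls of Ryr1 (0.17, adjusted p = 0.0985), Myl1 (-0.26, adjusted p = 0.0645), Lmod2 (0.33, adjusted p = 0.0531) and Ckmt2 (-0.16, adjusted p = 0.296) were lost, and without RSV mouse 3 that of Tnnc2 (-0.18, adjusted p = 0.0582). No member passed among 48 cytosolic ribosomal proteins, 23 genes of cholesterol synthesis, 32 interferon-stimulated genes or 7 genes of MHC class II. Nr4a3, an immediate-early nuclear receptor, was lower in RSV at 1.14 to 2.28 CPM than in DEX at 2.87 to 19 CPM, where mice 1 (10.5 CPM) and 4 (19 CPM) were high (log2 -2.42 ± 0.34, adjusted p = 4.79e-06). Jun rose (94.6 ± 7.9 CPM in RSV and 70.8 ± 5.17 CPM in DEX, adjusted p = 0.00889).

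Other cell types were read from fixed marker lists. Of 14 macrophage markers 3 fell (21.4% called, beside 9.47% of all genes, median -0.319), Cd163, Chil3 and Lyve1. The 14 markers summed to 48.4 to 107 CPM in RSV and 69.2 to 115 CPM in DEX. Other genes hold 41.5% of the 31-base words of Chil3. Cd163, a scavenger receptor of resident macrophages, averaged 3.59 ± 0.757 CPM in RSV and 5.18 ± 0.217 CPM in DEX (log2 -0.53 ± 0.13, adjusted p = 0.00853), while the call of Chil3 was lost without DEX mouse 2 (-0.71, adjusted p = 0.551) and that of Lyve1 without DEX mouse 4 (-0.35, adjusted p = 0.258) or 4 others. Neutrophil markers summed to 0.7 to 14.2 CPM in RSV, the highest value standing alone above a median of 0.97 CPM, and to 1.59 to 2.48 CPM in DEX. Schwann cell markers summed to 144 to 283 CPM in RSV and 160 to 235 CPM in DEX, with 14 of 15 log2 fold changes above 0 and no call. No call was made among 13 adipocyte or 7 erythroid markers measured, and 1 of 10 satellite cell markers fell, Chrdl2, with a call that 6 of the 9 single mice decided (-0.60, adjusted p = 0.122, without DEX mouse 4). The part of these cells in the results was not tested.

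**Figure D3:**
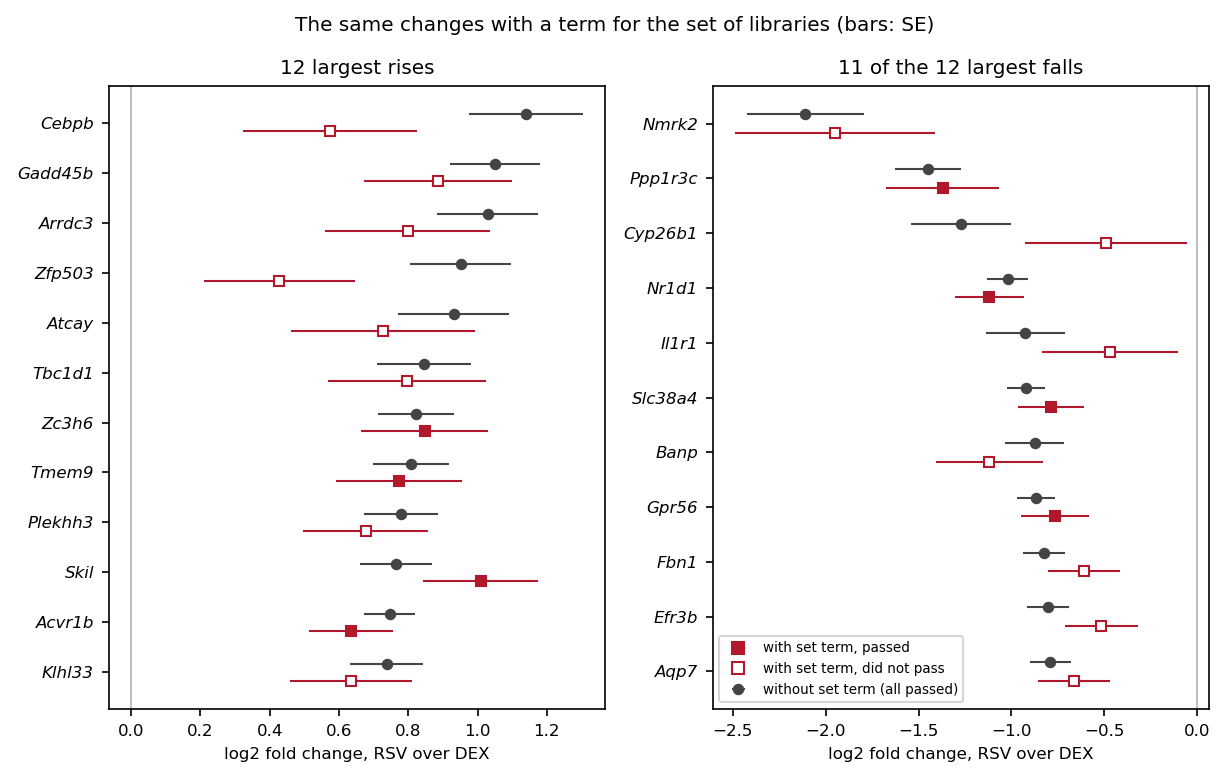
Log2 fold change ± SE, RSV over DEX, of the same 12 rises and 11 falls, without a term for the break in the listed order of the libraries (grey) and with it (red squares, filled where the gene passed). All 23 keep their sign, Skil has 0.77 without the term and 1.01 with it, and Cebpb has 1.14 without it and 0.57 with it.

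RSV was also set beside the extracts. RSV and JGT04 at 400 mg/kg, both in cellulose vehicle and both after the break, differed in 1 gene of 14428 (0.00693%), with 695 at an unadjusted p under 0.05 by edgeR and 1 call by DESeq2. The libraries of these groups did not overlap for 241 genes (1.67%). The gene, 3110062M04Rik, falls outside the naming rule and is given because it was the only call. It had 5.27, 4.03, 3.76, 4.39 and 4.01 CPM in RSV, against 6.67, 6.81, 7.76 and 7.15 CPM in JGT04 400 mg/kg (log2 -0.72 ± 0.12, adjusted p = 0.00621), and it lost the call without RSV mouse 3 (-0.68, adjusted p = 0.0527) or JGT04 400 mg/kg mouse 3 (-0.68, adjusted p = 0.087). A p above the threshold does not show that the groups act alike. The median SE of a log2 fold change in this comparison was 0.096. G0s2, an inhibitor of fat breakdown, had a log2 fold change of 0.65 and Trp53inp1 one of -0.43 (adjusted p = 0.958), and neither passed.

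Across the GA groups Ppp1r3c averaged 77.9 CPM in RSV. In the extracts it was 127 CPM in JGT02 at 100 mg/kg and 68.7 CPM at 400 mg/kg, 117 and 91.8 CPM in JGT03 at 100 and 400 mg/kg, and 78.7 and 58.7 CPM in JGT04 at 100 and 400 mg/kg. It was 213 CPM in DEX and 399 CPM in NT, so every group given a gavage in cellulose averaged below DEX. Acvr1b ran the other way, with 158 CPM in RSV, 110 to 171 CPM in the extract groups, 94.1 CPM in DEX and 55.5 CPM in NT. For Nr1d1, RSV (148 CPM) lay with JGT02, JGT03 and JGT04 at 400 mg/kg (180, 169 and 161 CPM) and with JGT04 at 100 mg/kg (142 CPM), while JGT02 and JGT03 at 100 mg/kg (273 and 267 CPM) lay with DEX (299 CPM) and NT (258 CPM). Cebpb had another pattern, at 25.9 CPM in RSV, 24.8 CPM in JGT04 400 mg/kg and 18.5 CPM in JGT04 100 mg/kg, against 12.5 to 13.3 CPM in the JGT02 and JGT03 groups, 11.8 CPM in DEX and 14.6 CPM in NT. This pattern runs with the break in the listed order. RSV and JGT04 400 mg/kg lie after it, JGT04 100 mg/kg on both sides and the other groups before it. With the set term the call of Cebpb against DEX was lost, as given above. Fkbp5 averaged 44.8 CPM in RSV, 34.5 to 71.3 CPM in the extracts, 75.7 CPM in DEX and 65.4 CPM in NT. Col4a1 averaged 54.7 CPM in RSV, 53.2 to 76.4 CPM in the extracts, 82.5 CPM in DEX and 124 CPM in NT.

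**Figure D4:**
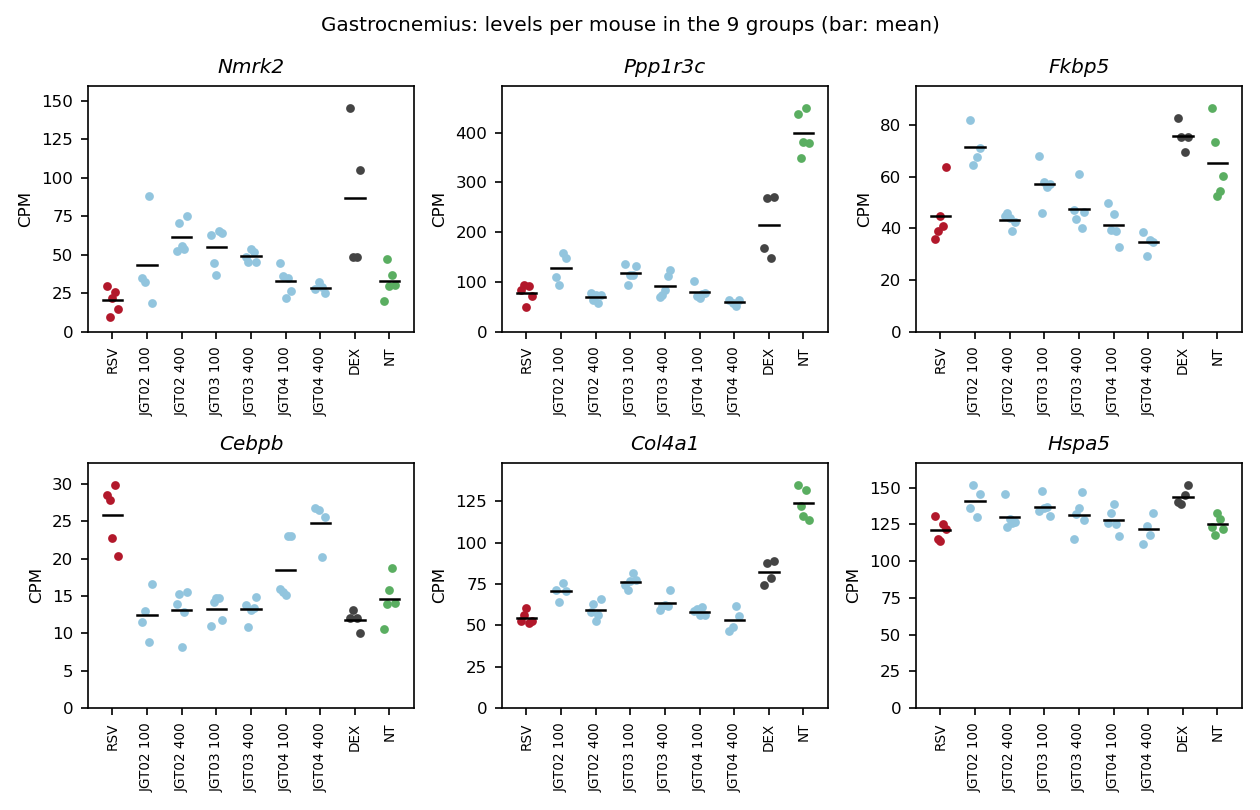
CPM of Nmrk2, Ppp1r3c, Fkbp5, Cebpb, Col4a1 and Hspa5 in every GA mouse of the RSV group, the 6 extract groups, DEX and NT, with bars at group means and 4 points for JGT02 at 100 mg/kg, whose mouse 1 was left out. Cebpb is high in RSV (25.9 CPM) and JGT04 400 mg/kg (24.8 CPM), the groups wholly after the break in the listed order, against 11.8 CPM in DEX. Ppp1r3c and Col4a1 average below DEX in RSV and in every extract group.

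Whether RSV mice differed from mice without DEX was asked with the NT group. RSV differed from NT in 4855 genes (33.6% of those tested), 2463 higher (17.1%) and 2392 lower (16.6%), and the libraries did not overlap for 3099 genes (21.5%). With the set term 1581 passed, and with the JGT02 library put back 2089. The largest rises were in Lcn2, an iron-binding protein of the acute phase (73.3 ± 14.2 CPM in RSV and 1.65 ± 1.42 CPM in NT, log2 5.50 ± 0.25), Pnmt, which makes adrenaline (log2 4.08), Orm1, an acute phase glycoprotein (log2 3.61, with 27.5% of its 31-base words shared), Gnmt and Tusc5. In the comparison with DEX, Lcn2 averaged 73.3 CPM in RSV and 78.4 CPM in DEX (log2 -0.10, adjusted p = 0.804). The largest falls against NT were in the MHC class II genes H2-Ab1 (log2 -2.96 ± 0.25), H2-Aa (-2.91) and Cd74 (-2.91), and in the interferon-induced Gbp4 and Tgtp2. Other genes hold 14.3% of the 31-base words of Gbp4 and 90.5% of those of Tgtp2.

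RSV and DEX were each compared with the same NT mice, so the values are given side by side. Ppp1r3c was lower than NT in RSV by a log2 fold change of -2.36 and in DEX by -0.90. For Fbn1 the log2 fold changes against NT were -2.01 in RSV and -1.18 in DEX, and for Smad7 1.21 in RSV and 0.55 in DEX. Nmrk2 had -0.69 in RSV (adjusted p = 0.0774) and 1.41 in DEX (adjusted p = 0.000512). Banp, a nuclear matrix protein, averaged 4.23 CPM in RSV and 7.76 CPM in DEX, beside 4.26 CPM in NT, and its log2 fold change against NT was -0.01 in RSV (adjusted p = 0.975) and 0.87 in DEX (adjusted p = 6.63e-05). Hspa5 (log2 -0.04 in RSV and 0.21 in DEX) and Gdf11 (log2 -0.04 in RSV and 0.34 in DEX) were likewise called against NT in DEX and not in RSV, and the test of that difference is the RSV against DEX comparison above.

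The change with RSV differed between the muscles for many genes. In SO, RSV differed from DEX in 6443 of 15142 genes (42.6%), 3336 higher (22.0%) and 3107 lower (20.5%). A second break in the listed order, inside the SO group of JGT02 at 400 mg/kg, lies between the SO libraries of DEX and those of RSV, and with a term for the sets 70 genes passed in SO. The interaction of muscle and treatment, GA minus SO, passed for 3094 of 15142 genes (20.4%), 1445 higher (9.54%) and 1649 lower (10.9%). It was sensitive to the libraries: 1844 genes passed without SO DEX mouse 4, 384 with the libraries that stand apart put back and 1 with the set term. In CPM scaled over the libraries of both muscles, which differ slightly from the values above, Cebpb had 29.2, 28.6, 23.4, 30.7 and 20.9 CPM in GA of RSV mice, against 12.4, 13.4, 12.5 and 10.3 CPM in GA of DEX mice. In SO it had 13.7, 13.4, 14.8, 16.3 and 7.98 CPM in RSV, against 34.2, 31, 35.6 and 43.0 CPM in DEX. The groups are apart in both muscles in opposite directions, with an interaction of 2.57 on the log2 scale (adjusted p = 2.76e-09), and with the set term it did not pass (adjusted p = 0.754). Skil also had opposite signs, with log2 fold changes of 0.77 in GA and -0.29 in SO (interaction adjusted p = 6.42e-06). Its SO groups overlapped, at 7.59 to 10.1 CPM in RSV and 8.25 to 14.1 CPM in DEX. Smad7 had 0.65 in GA and -0.47 in SO (interaction adjusted p = 2.07e-06). Fmo2 had 0.72 in GA and 0.81 in SO (interaction adjusted p = 0.721), and Gpr56 had -0.87 in GA and -1.07 in SO (adjusted p = 0.342). Sirt1 had a log2 fold change of 0.17 in GA, where it did not pass, and -0.35 in SO (interaction adjusted p = 0.00273). Since 1 gene in all passed the interaction with the set term, at most 1 of Skil, Smad7 and Sirt1 kept its call there.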

How the data were processed

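RNA of 86 libraries, 43 per muscle in 9 groups, was taken with TRIzol and sequenced as 100 bp paired reads on an MGI instrument from directional libraries, per the labels' protocols. The authors deposited RSEM (1.3.3) expected counts of each gene. The submitters' processing notes also list STAR 2.7.3a, Trim Galore 0.6.5, FastQC 0.11.9 and the build GRCm38. The annotation, strand setting and filters are not given in the sources used here. Of the values 92% were whole.

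The expected counts were rounded, filtered with filterByExpr, scaled with TMM and tested in R 4.3.3 with edgeR 4.0.16 (quasi-likelihood). The GA fit held 42 libraries of 9 groups (without mouse 1 of JGT02 at 100 mg/kg, which stands apart), and the fit of both muscles 83. Total counts in GA were 22.3 to 32.1 M (mega counts). On simulated counts of RSV against DEX the test recovered 65.7% of 1.5-fold, 83.6% of 2-fold and 92.4% of 4-fold changes, and 0.0991% of unchanged genes were called. The simulated counts held no level break and no other group differences, so these shares do not cover such features of the real libraries.

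Genes named were the 12 largest rises and falls in RSV against DEX (5 in other comparisons) among calls with a mean of 5 CPM or more, no overlap between libraries and no predicted-gene name, 18 panel genes, and up to 3 called members per list and direction. Some genes that met the rule are not reported here. Members of the comparison, the 43 lists and the rule were chosen with earlier results of these data known. The remaining called members of 6 lists, and all genes in the text taken from these pools, were picked after their values were seen.

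Mouse numbers do not pair RSV and DEX mice (correlations of -0.00749 to 0.0625). The results were also computed with DESeq2 1.42.0, with its scaling in edgeR, unfiltered, with the library put back, with the set term, with the groups alone, with the mouse number as a block and without each library. Positions are from GENCODE on GRCm38, promoter windows from RefSeq GRCm38.p6. Of the 128 genes named for RSV against DEX, 13 share over 10% of their 31-base words with other genes and 41 have exons over those of a gene on the other strand. Python 3.11.15 was used with scipy 1.17.1 for permutation tests, matplotlib 3.10.9 for plots, and numpy 2.4.6 and pandas 2.3.3 for tables.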

Additional observations from a re-analysis of the deposited data

Results flagged for a closer look

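Single mice stood far from the rest of their group in 5 of 90 groups of values checked (41 genes and 4 library measures in RSV and DEX), where chance gives about 1 in 20. In RSV, Il1r1 had 9.59 CPM in mouse 4, against 6.12 to 6.6 CPM in the other RSV mice. In DEX, mouse 4 was high for Efr3b (10.5 CPM, others 7.17 to 7.61 CPM) and Igf1 (52.2 CPM, others 22.2 to 23.2 CPM), and low for Klf15 (10.6 CPM, others 20.6 to 21.5 CPM). DEX mouse 2 was low for Aqp7 (8.12 CPM, others 9.59 to 9.87 CPM).

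The change with RSV differed between GA and SO, by the interaction test of edgeR (log2 difference, GA minus SO, with its adjusted p), for the 10 genes with the largest differences that met the naming rule. Higher in GA were Cebpb (2.57, 2.76e-09), Mt2 (2.67, 0.00645), Thbs1 (2.44, 0.00147), Prg4 (2.26, 0.00235) and Cd44 (2.22, 0.000671). Cebpb rose by 1.14 in GA and had -1.44 in SO, while Mt2, Thbs1, Prg4 and Cd44 had -1.06, -0.09, -0.24 and -0.33 in GA and -3.75, -2.54, -2.51 and -2.56 in SO. SO DEX mouse 4 had 240.0 CPM of Mt2, against 7.37 to 13.4 CPM in the other SO DEX mice, and 92.2 CPM of Cd44, against 7.61 to 9.49 CPM. Without that mouse the difference was -0.000873 for Mt2 (adjusted p = 1), 0.47 for Cd44 (adjusted p = 0.258) and 1.47 for Thbs1 (adjusted p = 0.0539). Lower in GA were Lars2 (-2.39, 0.000541), Mettl21c (-1.57, 0.00134), Cyp26b1 (-1.24, 0.0251), Slc9a2 (-0.93, 3.17e-05) and Aqp4 (-0.93, 0.00301). Lars2, which charges mitochondrial leucine tRNA, had 52.6 to 77.0 CPM in GA of RSV mice and 63.2 to 126 CPM in GA of DEX mice, but 148 to 369 CPM in SO of RSV mice and 44.9 to 65.5 CPM in SO of DEX mice. Cyp26b1 lost its call without SO DEX mouse 4 (-0.92, adjusted p = 0.11) and without 3 other mice. None of the 10 passed with the set term.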

How the results depend on the processing

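The counts for RSV against DEX (1367) and RSV against NT (4855) stayed within 1.5 times with DESeq2, its size factors, no filter and any library left out (924 to 1306 and 4299 to 4680). For RSV against DEX, 199 passed with the library put back, 46 with the set term, 735 with the groups alone and 557 with the mouse number as a replicate block, although the numbers do not pair the mice. For RSV against NT the set term gave 1581 and the library put back 2089. For RSV against DEX in SO (6443) the set term, tried there after the data were seen, gave 70. For RSV against JGT04 400 mg/kg (1) the groups alone gave 3, the block 0, and left-out libraries 0 (without RSV mouse 3 or JGT04 400 mg/kg mouse 3) to 3. The GA minus SO count (3094) was 384 with libraries put back, 1 with the set term and 923 with the groups alone. It was 1844 (without SO DEX mouse 4) to 3733 with a library left out. It was 44 with another block, the mouse number within a treatment over both muscles. Whether equal numbers in GA and SO name the same mouse is not in the labels, and the main fit treats these libraries as separate. The cause of these moves was not tested.

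Of 113 named calls, 73 held without any 1 library, 28 were lost without DEX mouse 4 and 13 held with the set term. Signs turned with the set term for Foxo3 (-0.0342), Klf15 (-0.23), Myh4 (-0.11), Lcn2 (0.19), Ryr1 (-0.00915) and, against NT, Il1r1 (0.18). In DEX against NT the block gave 0.0447 for Arrdc3 and -0.0208 for Slc38a4. Left-out libraries turned uncalled values of Klf15 (-0.10 to 0.18), Pdk4 (-0.0473 to 0.438), Ppargc1a (-0.0229 to 0.0649) and Myh1 (-0.0224 to 0.16) in RSV against DEX, Banp (-0.0597 to 0.0484) in RSV against NT, and Arrdc3 (-0.24 to 0.11) and Slc38a4 (-0.12 to 0.10) in DEX against NT, and the called difference of Mt2 between the muscles (-0.000873 to 3.07).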

Other observations

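Some called genes belong to groups not described above, and none of those named here passed with the set term. Beside 9.47% of all genes, 17.6% of 17 developmental and regenerating fibre genes were called, 3 falls in RSV. Myf6, a myogenic regulatory factor, averaged 45.8 ± 1.68 CPM in RSV and 55.5 ± 5.14 CPM in DEX (log2 -0.28 ± 0.06, adjusted p = 0.00441), and the imprinted H19 averaged 501 ± 28.8 CPM in RSV and 627 ± 35.1 CPM in DEX (log2 -0.32 ± 0.09, adjusted p = 0.0177). The third, Actc1, the cardiac actin also made in developing muscle, lost its call without DEX mouse 4 (-0.36, adjusted p = 0.47). Among 33 autophagy genes 2 rose and 1 fell, a share of 9.09%, close to that of all genes. Lamp2, a lysosome membrane protein, averaged 102 ± 3.46 CPM in RSV and 90.1 ± 3.46 CPM in DEX (log2 0.18 ± 0.04, adjusted p = 0.00515), while the calls of Bnip3l (0.13, adjusted p = 0.0772) and Tecpr2 (-0.29, adjusted p = 0.0602) were lost without DEX mouse 4.

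Of 36 genes of fatty acid handling 3 rose and 1 fell (11.1%, near the 9.47% of all genes), and the calls of Echs1 and Acsl1 were each lost without any of 7 of the 9 mice. Slc27a1, a fatty acid transport protein, averaged 66.5 ± 2.36 CPM in RSV and 57.5 ± 2.44 CPM in DEX (log2 0.21 ± 0.05, adjusted p = 0.00801). Gsta4, a glutathione transferase, averaged 5.42 ± 0.553 CPM in RSV and 3.94 ± 0.352 CPM in DEX (log2 0.46 ± 0.09, adjusted p = 0.00112), 1 of 2 rises among 30 antioxidant genes (6.67% called). The list of insulin-like growth factor and mTOR signalling held 3 rises and 3 falls among 31 genes (19.4% called). Pik3ca, a catalytic subunit of phosphoinositide 3-kinase, averaged 51.1 ± 1.92 CPM in RSV and 58.4 ± 0.781 CPM in DEX (log2 -0.19 ± 0.04, adjusted p = 0.000746). The call of Igfbp5, a binding protein of these growth factors, was lost without DEX mouse 4 (-0.55, adjusted p = 0.0544).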
